A study of Mus musculus with 9 samples.

Results

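*Hand1*, *Hand2*, *Twist1*, *Twist2*, *Scx* and *Tcf12*, 6 of the 32289 features counted in every library, encode basic helix-loop-helix (bHLH) transcription factors of the limb bud mesenchyme, and they were selected by gene symbol, not by their values. Their transcripts were counted in single cells by droplet RNA-seq of transcript 3′ ends, from mouse forelimb buds staged as E10.75, with 37 to 39 somites. The 3 genotypes, on a Swiss Albino background, were sampled with 3 libraries each, and each library came from 1 pair of forelimb buds: wild type (Wt), EC1CRM8Δ/Δ (E1C8) and EC1CRM5Δ/Δ (E1C5). Both mutant genotypes are homozygous for deletions of limb bud enhancers of *Grem1*, the gene of a secreted BMP antagonist. EC1 is deleted in both, together with CRM8 in the first and CRM5 in the second. The deletions are present in every cell of the embryo, not in the mesenchyme alone.

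bHLH factors bind DNA as dimers at E-box sequences, and the tissue-restricted members (HAND, TWIST and SCX proteins) usually pair with broadly expressed E proteins such as TCF12, TCF3 and TCF4, while ID proteins lack a DNA-binding region and sequester E proteins. In the limb bud, HAND2 and the repressor form of GLI3 restrict each other to posterior and anterior mesenchyme before *Shh* is activated, and HAND2 then acts upstream of *Shh* in the polarizing region. TWIST1 can pair with HAND2 or with E proteins and is needed for limb bud outgrowth, and SCX marks progenitors of tendons.

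The 9 matrices held 133086 barcodes, of which 44654 were kept as cells. Mesenchymal cells were those with at least 3 of *Prrx1*, *Prrx2*, *Pdgfra* and *Tbx5* detected and fewer than 3 markers of any other cell type, which gave 33565 cells. In these cells the 4 mesenchyme markers summed to 1202 CPM (UMIs of the genes per 1000000 UMIs of the pooled cells), while each marker list of another cell type summed to 27.7 CPM or less in every library. Of those lists, 4 lay higher in every E1C8 than in every E1C5 library: muscle (24.9 to 27.7 against 9.78 to 13.2 CPM), epithelium (14.4 to 18.1 against 9.16 to 11.3), endothelium (17.4 to 19.4 against 15.4 to 16.8) and immune (12.1 to 15.1 against 7.38 to 10.03). Libraries ranged from 424 to 6407 mesenchymal cells, and Wt 3 (708 cells) and E1C8 1 (424 cells) stood apart as small. All 3 Wt embryos were XY by their *Xist* and Y-linked counts, whereas E1C8 1, E1C8 2, E1C5 1 and E1C5 3 were XX, so genotype and sex are partly confounded. Wt 1 and E1C8 3 held some *Xist* beside Y-linked counts (22.04 and 8.37 CPM, against 0.078 CPM or less in the other XY libraries). E1C8 1, read as XX, held Y-linked counts at 3.43 CPM, against 0.043 CPM or less in the other XX libraries. The comparisons that use sex thus rest on less clear reads in these libraries. *Grem1* was at 43.6, 29.8 and 33.6 CPM in the mesenchyme of the Wt libraries, at 12.3, 11.6 and 14.3 CPM in E1C8 and at 18.2, 16.1 and 25.7 CPM in E1C5, with no overlap between Wt and either mutant. Pairs of libraries shared at most 0.497% of the cell barcodes of the smaller one.

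Position within the bud was read from marker genes in cells thinned to 10000 UMIs. The anterior list included *Alx1*, *Alx4* and *Pax1*, and the posterior list was *Shh*, *Prdm1*, *Osr1* and *Hoxd12*. Cells with 2 or more UMIs of one list and 0 of the other formed the anterior and posterior gates, cells with 1 UMI the weakly anterior and weakly posterior gates, cells with 0 of both the unmarked gate, and posterior cells with *Shh* itself the *Shh* gate. A further 6 gates, which can overlap with these and with each other, took cells by *Sox9* and *Col2a1* (core chondrogenic), *Hoxa13* and *Hoxd13* (distal autopodial), *Msx1*, *Asb4* and *Lhx2* (peripheral), *Meis2* and *Irx3* (proximal), *Sostdc1*, *Hgf* and *Ebf2* (Sostdc1 connective tissue) and *Hoxa11* without *Hoxa13* (zeugopodal). None of the 6 bHLH genes defines a gate. A gate was used in a library that had at least 20 cells of it, which left out the *Shh* gate of Wt 3 (11 cells), E1C8 1 and E1C5 2, the distal autopodial gate of E1C8 1 and E1C5 1, and the Sostdc1 connective tissue gate of Wt 3, E1C8 1, E1C5 1 and E1C5 2. In that last gate E1C5 has 1 library, assumed in the tests to vary like the others. Levels are given as CPM, the gene's share of the UMIs of the pooled cells. Each UMI stands for 1 captured transcript whatever the gene's length, so that CPM of different genes are compared as captured transcripts.

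*Twist1* and *Tcf12* were the abundant members in mesenchyme, followed by *Hand2*, then *Scx* and *Twist2*, while *Hand1* was close to absent. In Wt libraries the mean level was 404 CPM for *Twist1*, 295 CPM for *Tcf12*, 157 CPM for *Hand2*, 74.7 CPM for *Scx*, 48.5 CPM for *Twist2* and 0.555 CPM for *Hand1*. Of cells thinned to 10000 UMIs, 90.9 to 92.3% of Wt mesenchymal cells had a *Twist1* UMI, 53.1 to 59.2% a *Hand2* UMI and 36.5 to 49.9% an *Scx* UMI. Erythroid-like cells, which should lack these factors, had a *Twist1* UMI in 6.76 to 23.2%, a *Hand2* UMI in 2.77 to 7.42% and an *Scx* UMI in 1.03 to 3.18% of cells thinned alike, at a median depth of 32469 UMIs before thinning against 29350 in mesenchyme. *Tcf12* was the member least limited to mesenchyme. Muscle-like cells held it at 251 to 402 CPM, and 86.0 to 95.2% of them had a UMI of it. Of erythroid-like cells, 18.4 to 40.3% had one.

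*Hand2* (ENSMUSG00000038193, chr8:57320983-57324633 in mm10, plus strand) rose stepwise from the anterior to the *Shh* gate. In Wt 1, 2 and 3 its level was 38.7, 52.4 and 62.7 CPM in the anterior gate, and 64.7, 73.9 and 71.7 CPM in the weakly anterior gate. The unmarked gate held 124, 128 and 120 CPM in the same libraries. It reached 233, 246 and 246 CPM in the weakly posterior gate, 299.6, 279 and 294 CPM in the posterior gate, and 494 and 439 CPM in the *Shh* gate of Wt 1 and 2. No 2 neighbouring gates overlapped between Wt libraries, so the order of all 6 gates was clear of the spread. The posterior gate was higher than the anterior gate by 2.58 ± 0.09 on the log2 scale (SE; adjusted p = 1.56e-31, edgeR's quasi-likelihood test with library as a block).

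**Figure D1:**
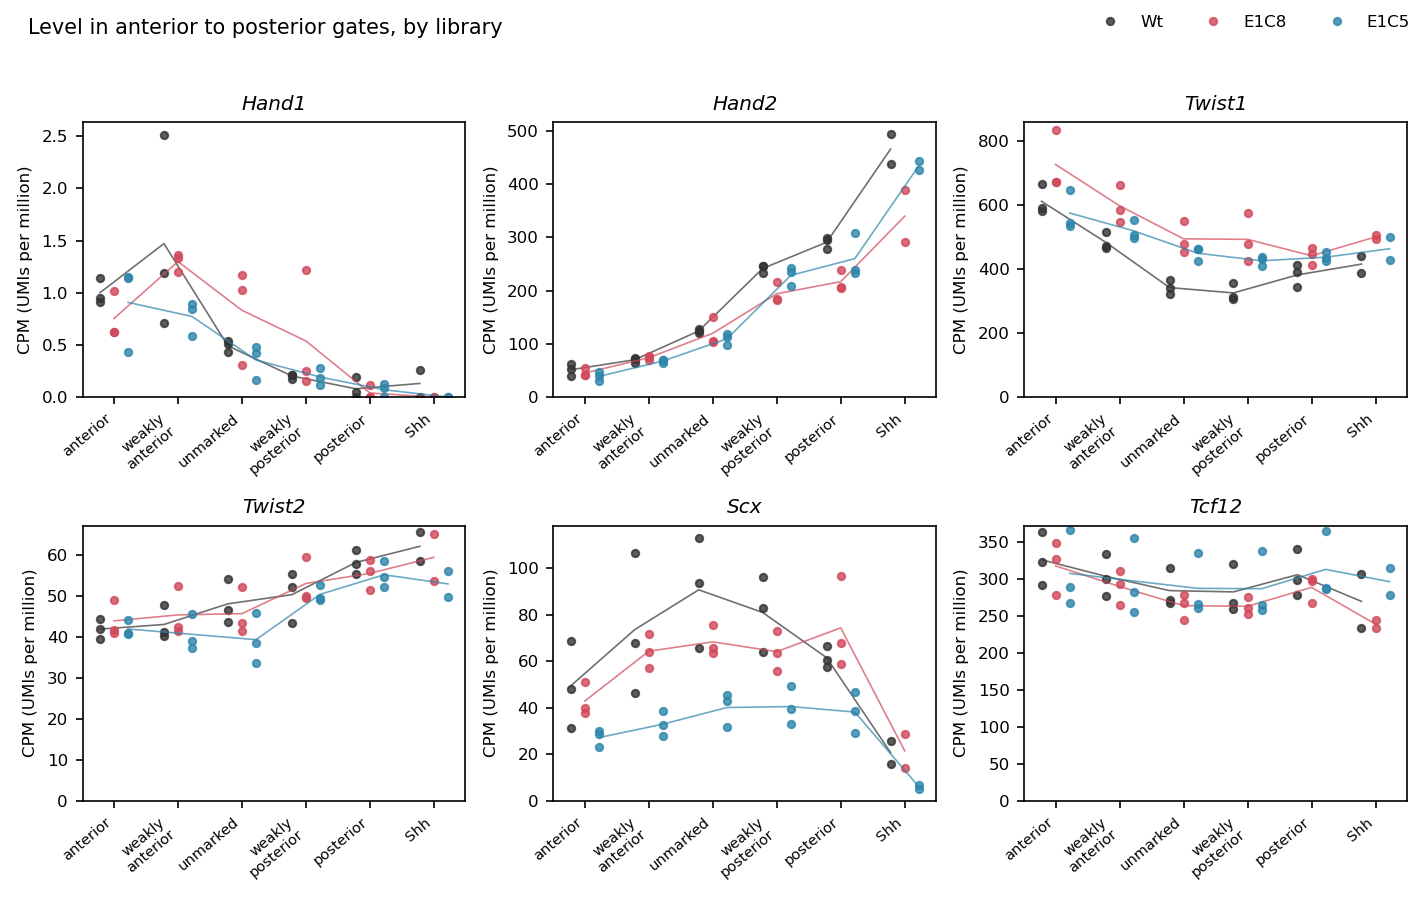
Level (y axis, CPM) of the 6 bHLH genes in anterior to posterior gates (x axis), with 1 point per library coloured by genotype and lines through the genotype means. *Hand2* climbs from 38.7 to 62.7 CPM in the Wt anterior gate to 439 CPM or more in the *Shh* gate. *Twist1* is highest in the Wt anterior gate.

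*Hand2* is transcribed away from a long noncoding RNA gene on the opposite strand, *Hand2os1* (ENSMUSG00000100510), whose RefSeq start lies 124 bases upstream of the *Hand2* start. The annotated *Hand2os1* gene also overlaps *Hand2* itself, and reads of the pair are told apart by strand, since the default counting keeps reads in the sense direction. *Hand2os1* was higher in the posterior than in the anterior gate of Wt libraries by 4.09 ± 0.16 on the log2 scale (adjusted p = 5.12e-29), from 7.31 to 10.68 CPM up to 125 to 182 CPM. Over mesenchymal cells within each library, *Hand2* and *Hand2os1* correlated with a median Pearson's r of 0.539 over 9 libraries, the highest of the 8 pairs examined. Because the pair share this stretch, the 250 bases before the *Hand2* start are shown (RefSeq, GRCm38.p6, plus strand, chr8:57320733-57320982), beside those before the start of *Twist1* (chr12:33957421-33957670, plus strand), a member with the opposite slope. Capitals mark matches to the E-box CANNTG, which reads the same on both strands.

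Hand2: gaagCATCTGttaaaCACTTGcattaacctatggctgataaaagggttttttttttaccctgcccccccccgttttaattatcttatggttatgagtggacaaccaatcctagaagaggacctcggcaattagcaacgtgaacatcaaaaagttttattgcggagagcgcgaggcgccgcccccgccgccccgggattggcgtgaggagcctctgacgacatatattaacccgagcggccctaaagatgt
Twist1: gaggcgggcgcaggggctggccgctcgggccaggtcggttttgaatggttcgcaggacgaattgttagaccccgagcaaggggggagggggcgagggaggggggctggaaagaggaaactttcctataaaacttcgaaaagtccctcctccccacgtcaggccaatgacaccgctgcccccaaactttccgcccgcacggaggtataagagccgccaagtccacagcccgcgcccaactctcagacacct

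The *Hand2* window holds 2 matches (CATCTG and CACTTG) and the *Twist1* window holds 0. Of 32851 such windows in the RefSeq table, 66.2% hold at least 1 match and 33.8% hold 0, so either number is common.

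*Twist1* (ENSMUSG00000035799, chr12:33957671-33959829, plus strand) was highest in anterior mesenchyme. Its level was 590, 580 and 665 CPM in the anterior gate of Wt 1, 2 and 3, and 465, 471 and 517 CPM in the weakly anterior gate. The unmarked gate held 340, 366 and 321 CPM and the weakly posterior gate 312, 357 and 307 CPM. It was at 344, 390 and 412 CPM in the posterior gate and at 389 and 442 CPM in the *Shh* gate. The anterior and weakly anterior gates lay above all others without overlap, whereas the other 4 gates overlapped with their neighbours in the order of levels. The posterior gate was lower than the anterior gate, with a log2 fold change of -0.67 ± 0.05 (adjusted p = 1.53e-16).

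The number of *Twist1* UMIs per *Hand2* UMI fell along the axis. The Wt mean of *Hand2* rose from 51.3 CPM in the anterior gate to 466 CPM in the *Shh* gate. That of *Twist1* went from 612 CPM in the anterior gate to 326 CPM in the weakly posterior gate and 416 CPM in the *Shh* gate. In Wt libraries thinned to 10000 UMIs per cell the mean ratio was 11.3 in the anterior gate (7.25 to 16.5, n = 3), 6.16 in the weakly anterior gate, 2.71 in the unmarked gate, 1.33 in the weakly posterior gate, 1.30 in the posterior gate (1.23 to 1.39, n = 3) and 0.895 in the *Shh* gate (0.789 and 1.00, n = 2). Most cells of the posterior gate held both transcripts: 77.4 to 81.9% of them in Wt libraries had UMIs of *Hand2* and of *Twist1*, against 21.3 to 41.4% in the anterior gate. Per cell the relation was weak, with a median Pearson's r of -0.099 over the 9 libraries (-0.141 to 0.035). Each r was taken within 1 library, on logged UMIs of mesenchymal cells thinned to 10000 UMIs.

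**Figure D2:**
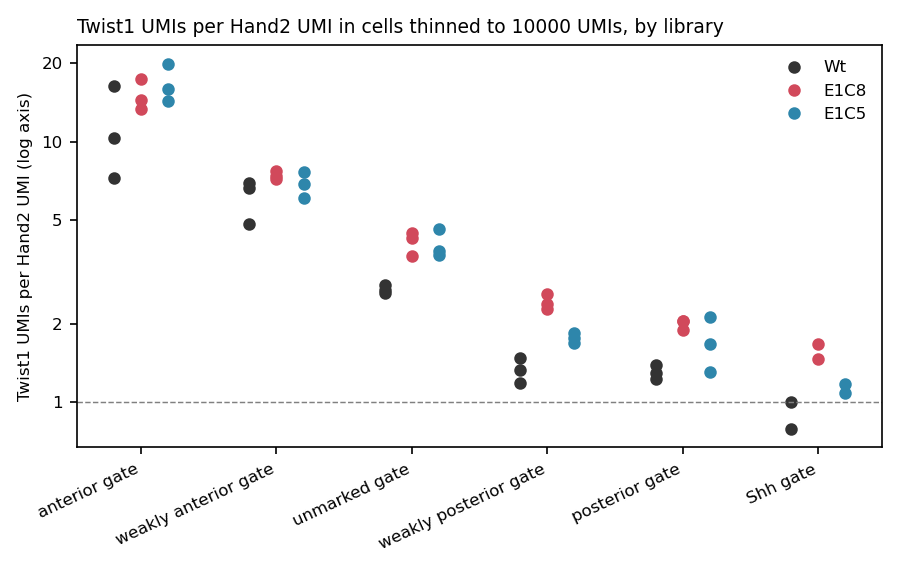
*Twist1* UMIs per *Hand2* UMI (y axis, log scale) in each anterior to posterior gate (x axis), with 1 point per library and genotype in colour. The Wt ratio falls from a mean of 11.3 in the anterior gate to 0.895 in the *Shh* gate. Mutant points lie above the Wt points in the unmarked, weakly posterior and *Shh* gates.

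*Hand1* (ENSMUSG00000037335, chr11:57828705-57832818, minus strand), better known from heart and extraembryonic tissue, was nearly silent but not evenly spread. The anterior gate of the 3 Wt libraries held 49 UMIs in 36 of 1045 cells, and the posterior gate held 4 UMIs in 4 of 1007 cells, at 1.02 and 0.091 CPM. The anterior level was 11.2 times the posterior one (95% exact binomial interval 4.10 to 42.6, counting error only), and every Wt library was higher in the anterior gate (1.14, 0.948 and 0.909 CPM against 0.193, 0.044 and 0 CPM). The fitted log2 fold change was -3.42 ± 0.58 (adjusted p = 4.21e-06). With gates that need 3 UMIs of a list the call was lost (log2 fold change -2.43, adjusted p = 0.079). The peripheral gate, mesenchyme beneath the ectoderm, held the most *Hand1*, with 82 UMIs in 62 of 720 Wt cells, or 2.32 CPM (95% exact Poisson interval 1.85 to 2.88).

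*Twist2* (ENSMUSG00000007805, chr1:91801461-91848028, plus strand) had the slope of *Hand2*, not that of *Twist1*, but a shallow one. Its level was 39.5, 44.4 and 41.8 CPM in the Wt anterior gate and 61.2, 57.9 and 55.5 CPM in the posterior gate, without overlap. The posterior gate was higher by 0.47 ± 0.07 on the log2 scale (adjusted p = 5.41e-08).

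*Scx* (ENSMUSG00000034161, chr15:76457452-76459458, plus strand, within *Bop1* on the opposite strand) had its highest mean in the unmarked gate, whose cells lack both marker lists. In Wt 1, 2 and 3 it was at 31.4, 47.9 and 68.9 CPM in the anterior gate, 65.6, 93.6 and 113 CPM in the unmarked gate and 57.5, 66.6 and 60.4 CPM in the posterior gate. The *Shh* gate held only 15.6 and 25.6 CPM, below every other gate. The ranges of neighbouring gates overlapped, since Wt 1 was lowest in each of the 5 gates that all 3 libraries had, and the test compares gates within a library. Core chondrogenic cells, rich in *Scx*, were 26.4 to 40.4% of the unmarked, 14.99 to 17.1% of the anterior and 4.26 to 9.55% of the posterior gate in Wt, and their part in the order was not tested. The posterior gate was higher than the anterior gate by 0.48 ± 0.09 on the log2 scale (adjusted p = 2.85e-05), though not in Wt 3 (60.4 against 68.9 CPM). *Bop1* did not pass (0.06 ± 0.06, adjusted p = 0.533).

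*Tcf12* (ENSMUSG00000032228, chr9:71842688-72111871, minus strand) was nearly even. Its level was 364, 293 and 323 CPM in the Wt anterior gate and 341, 278 and 299.6 CPM in the posterior gate. Every library was lower in the posterior gate, but the difference of -0.08 ± 0.03 on the log2 scale did not pass (adjusted p = 0.063). It passed with DESeq2 (adjusted p = 0.018) and with DESeq2 size factors (0.043), and without E1C8 1 (0.030) or without E1C5 3 (0.044).

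Of the 6 genes, 3 were thus higher in the posterior gate (*Hand2*, *Twist2* and *Scx*) and 2 lower (*Hand1* and *Twist1*), where 22.5% of the 14211 genes tested passed, 11.4% higher and 11.1% lower. The median log2 fold change was 0.19 over the 6 genes and 0.0034 over all genes tested. Toward the polarizing region 3 of 6 changed between the posterior and *Shh* gates, where 13.5% of all genes passed. *Hand2* rose further, by 0.65 ± 0.09 on the log2 scale (adjusted p = 5.32e-08). *Scx* fell, with a log2 fold change of -1.53 ± 0.18 (adjusted p = 1.62e-09), and *Tcf12* fell with one of -0.25 ± 0.04 (adjusted p = 2.11e-05). *Twist1* was at 0.10 ± 0.07 (adjusted p = 0.391), *Twist2* at 0.05 ± 0.10 (0.802) and *Hand1*, with 1 UMI in the *Shh* gate, at 0.39 ± 1.68 (0.932). With gates taken from all UMIs of a cell, *Twist1* was higher in the *Shh* gate by 0.23 on the log2 scale (adjusted p = 0.012). The makeup of these 2 gates differed. Distal autopodial cells were 25.3 to 44.4% of the *Shh* gate and 5.32 to 8.5% of the posterior gate in Wt. Among domain gates that gate had the highest Wt mean of *Hand2* (293 CPM) and the lowest of *Scx* (12.8 CPM) and *Tcf12* (236 CPM). The part of this makeup in the 3 changes was not tested.

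The domain gates ordered the 6 genes differently. *Hand2* was highest in the distal autopodial gate of Wt libraries, where digit progenitors lie (288, 269 and 322 CPM), and lowest in the peripheral gate (17.2, 19.2 and 25.9 CPM). No 2 neighbouring domain gates overlapped for *Hand2*. *Twist1* was highest in the peripheral gate (588, 583 and 635 CPM) and lowest in the core chondrogenic gate (257, 275 and 248 CPM), so the gate poorest in *Hand2* was the richest in *Twist1*. *Scx* was high in the Sostdc1 connective tissue gate (142 and 175 CPM in Wt 1 and 2), the core chondrogenic gate (105, 130 and 143 CPM) and the proximal gate (82.8, 104 and 151 CPM), 3 gates whose ranges overlapped. It was low in the distal autopodial gate (10.4, 14.3 and 13.7 CPM) and in the peripheral gate (10.9 to 16.5 CPM), which overlapped. *Twist2* ranged from 28.3 CPM (peripheral) to 64.5 CPM (Sostdc1 connective tissue), and *Tcf12* from 236 CPM (distal autopodial) to 328 CPM (Sostdc1 connective tissue), as Wt means.

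**Figure D3:**
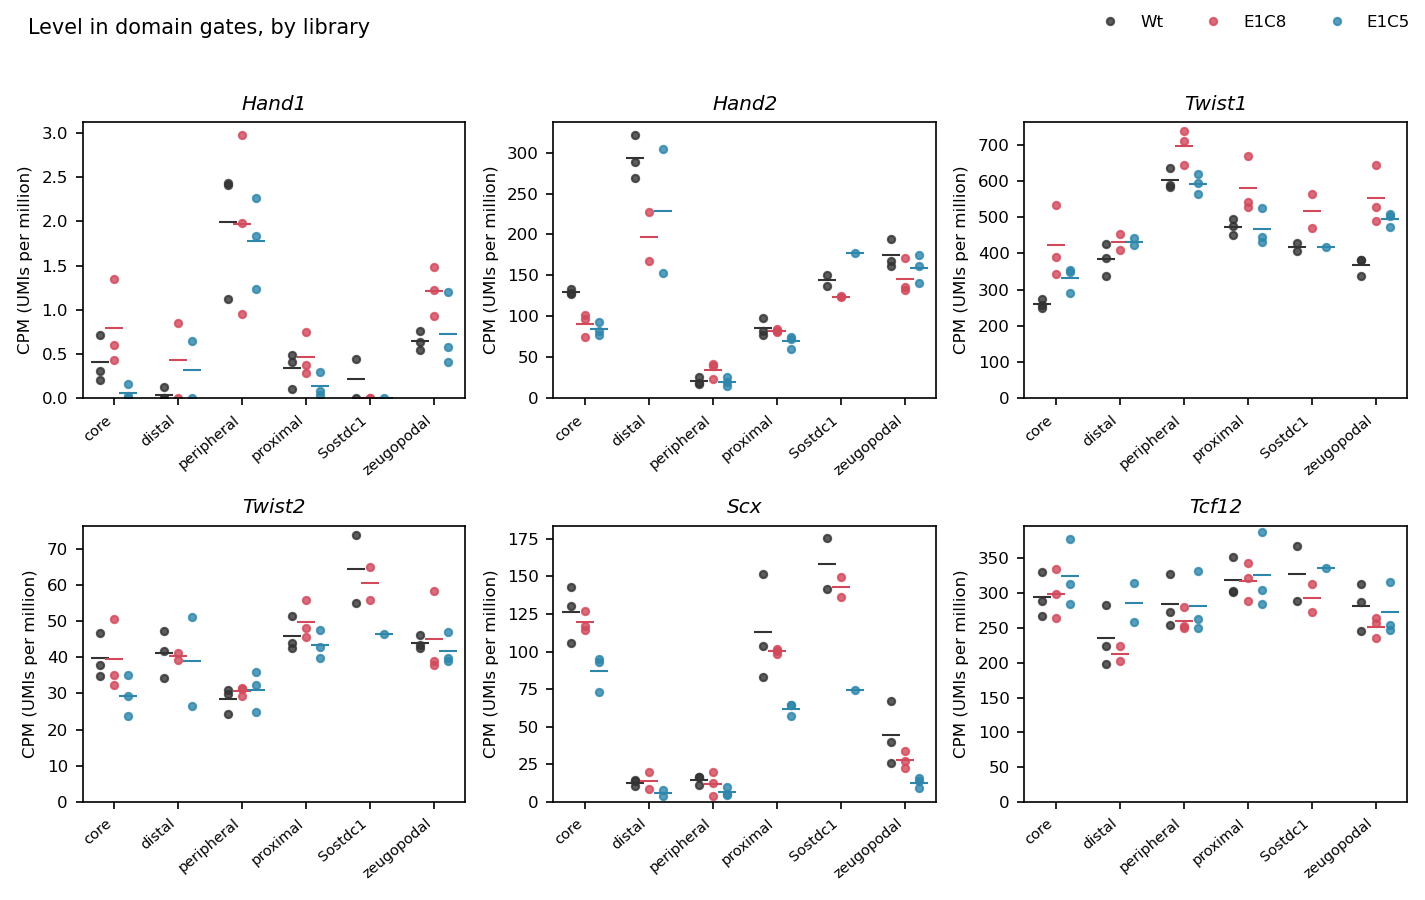
Level (y axis, CPM) of the 6 bHLH genes in 6 domain gates (x axis), with 1 point per library and genotype in colour. *Hand2* is highest in the distal autopodial gate (269 to 322 CPM in Wt) and *Scx* is at 14.3 CPM or less there in Wt.

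The anterior and posterior gates differ in proximodistal makeup. On average 46.9% of Wt anterior gate cells also fell in the proximal gate, against 6.84% of posterior gate cells. Within a domain, the posterior over anterior ratio could be formed in Wt 1 and 2. For *Hand2* it was 2.59 and 3.15 within the core chondrogenic gate, 3.60 and 5.00 within the proximal gate and 14.2 and 42.7 within the zeugopodal gate. *Twist1* was lower in posterior cells in both libraries and all 3 domains (ratios of 0.531 to 0.879), and *Scx* was higher in both and in all 3 (1.28 to 2.10). *Twist2* was higher in posterior cells of the core chondrogenic (2.01 and 2.10) and zeugopodal gates (1.67 and 1.98) but not of the proximal gate (0.640 and 0.996). *Tcf12* stayed between 0.886 and 1.04. For *Hand1* these cells held 0 to 4 UMIs per library and gate, and posterior cells were higher in 1 of 2 libraries in the core chondrogenic and proximal gates and in 0 of 2 in the zeugopodal gate. The peripheral gate, richest in *Hand1*, took 13.2% of Wt anterior and 0.278% of posterior gate cells, so the *Hand1* slope is not shown within a domain. With 2 libraries these ratios were not tested.

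In both mutants the 5 genes called in Wt passed in the same direction. In E1C8 libraries the posterior against anterior log2 fold change of *Hand2* was 2.13, of *Twist1* -0.68, of *Twist2* 0.37, of *Scx* 0.55 and of *Hand1* -3.96, all past an adjusted p of 0.05, as was *Tcf12* at -0.11 (11.7% of all genes passed). In E1C5 it was 2.80 for *Hand2*, -0.39 for *Twist1*, 0.37 for *Twist2*, 0.42 for *Scx* and -3.17 for *Hand1*, all past it, and 0.02 for *Tcf12*, which did not pass (14.4% of all genes passed). The test of the difference itself, the posterior minus anterior change in the mutants against that in Wt, called 0 of the 6 genes by edgeR and 0 by DESeq2, which gave *Hand1* no adjusted p, with 162 of 14211 genes called in all (1.14%). *Twist1* was the only member with an unadjusted p under 0.05 in edgeR (difference 0.14 ± 0.06, unadjusted p = 0.035, adjusted p = 0.480), and it was called without the filter on low counts (adjusted p = 0.038). For *Hand2* the difference was -0.12 ± 0.12 (adjusted p = 0.847). The *Hand2* slope was below that of Wt in E1C8 (2.13) and above it in E1C5 (2.80). The mean of both mutants cannot show changes of opposite direction. Whether the slope of a single mutant differs from that of Wt was not tested.

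Across the whole mesenchyme *Twist1* lay above and *Hand2* below the Wt range in every mutant library, and *Scx* was lowest in E1C5. *Twist1* was at 388, 413 and 410 CPM in Wt, at 589, 530 and 487 CPM in E1C8 and at 449, 498 and 470 CPM in E1C5, so all 6 mutant libraries lay above all 3 Wt libraries. *Hand2* was at 151, 150.4 and 169 CPM in Wt, at 146, 113 and 118 CPM in E1C8 and at 127, 115 and 141 CPM in E1C5, all 6 below Wt. *Scx* was at 55.9, 77.7 and 90.5 CPM in Wt, at 61.4, 68.7 and 59.1 CPM in E1C8 and at 40.7, 39.8 and 29.3 CPM in E1C5, so E1C5 lay below both other genotypes while E1C8 overlapped with Wt.

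The mean of both mutants against Wt passed for 0 of the 6 genes in edgeR's quasi-likelihood test, where 2.01% of 16037 genes passed. *Twist1* was higher by 0.33 ± 0.08 on the log2 scale (adjusted p = 0.066), *Scx* was at -0.61 ± 0.16 (0.074) and *Hand2* at -0.30 ± 0.09 (0.102). These 3 had an unadjusted p under 0.05 and passed with DESeq2 (adjusted p = 0.006 for *Twist1*, 0.006 for *Scx* and 0.032 for *Hand2*). *Twist2* (-0.09 ± 0.09, adjusted p = 0.649), *Tcf12* (-0.03 ± 0.08, 0.893) and *Hand1* (0.10 ± 0.24, 0.872) passed with neither. Leaving out E1C5 3 brought *Twist1* to an adjusted p of 0.034, and leaving out Wt 1 brought *Scx* to 0.030, with a log2 fold change of -0.80.

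Each mutant on its own gave 1 call. In E1C8, *Twist1* was higher than in Wt by 0.38 ± 0.09 on the log2 scale (adjusted p = 0.033, where 8.5% of all genes passed), and *Hand2* was at -0.35 ± 0.10 (0.056). In E1C5, *Scx* was lower, with a log2 fold change of -0.96 ± 0.19 (adjusted p = 0.030, where 1.41% passed), while *Twist1* was at 0.28 ± 0.09 (0.198) and *Hand2* at -0.25 ± 0.10 (0.294). The *Twist1* call was lost when any Wt library, any E1C8 library or E1C5 1 was left out (log2 fold change 0.32 to 0.41, adjusted p 0.053 to 0.127), and the *Scx* call without Wt 2, Wt 3 or any E1C5 library (-1.07 to -0.79, adjusted p 0.057 to 0.112). With embryo sex as a covariate the log2 fold change was 0.41 for *Twist1* (adjusted p = 0.128) and -0.90 for *Scx* (0.213). *Hand2* in E1C8 passed with DESeq2 (adjusted p = 0.013), with DESeq2 size factors (0.0497), without the filter on low counts (0.043), with mixed-lineage cells kept (0.032) and without E1C5 3 (0.039). In libraries with at least 1000 mesenchymal cells neither passed (*Twist1* in E1C8 0.32, adjusted p = 0.144, and *Scx* in E1C5 -0.82, 0.178), and neither did among XY embryos, with 1 library per mutant (0.30, adjusted p = 0.584, and -0.81, 0.559).

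The mutants differed from each other in *Scx*, which was higher in E1C8 than in E1C5 by 0.70 ± 0.19 on the log2 scale (adjusted p = 0.042, where 9.44% of all genes passed). *Hand1* was at 0.87 ± 0.28 (adjusted p = 0.075), and *Twist1* (0.10 ± 0.09, 0.551) and *Hand2* (-0.10 ± 0.10, 0.572) did not pass. The *Scx* call was lost without Wt 2, any E1C8 library or any E1C5 library (0.51 to 0.80, adjusted p 0.052 to 0.141). It was also lost with sex as a covariate (0.70, adjusted p = 0.053), with mixed-lineage cells kept (0.63, 0.052), in libraries with at least 1000 mesenchymal cells (0.73, 0.072) and among XY embryos (0.50, 0.780). The marker lists of muscle, epithelium, endothelium and immune cells given above moved with it in the mesenchymal cells. Among single markers of muscle, *Myf5* was at 0.253 to 0.545 CPM in E1C8, 0.247 to 0.442 CPM in Wt and 0.046 to 0.107 CPM in E1C5, and *Lbx1* was at 0.969 to 1.52, 0.486 to 1.06 and 0.503 to 0.796 CPM. *Myod1* was at 0.063 to 0.074 CPM in E1C8 and at 0.046 CPM or less in E1C5, while *Pax3*, *Met* and *Pax7* overlapped between the mutants, at 2.77 CPM or less in every library. Muscle-like cells themselves held less *Scx* than mesenchyme of the same library in every library (19.9 to 37.6 CPM). The part of these cell types in the result was not tested. The core chondrogenic gate, rich in *Scx*, held 19.3 to 26.7% of thinned mesenchymal cells in Wt, 17.2 to 22.1% in E1C8 and 9.24 to 15.9% in E1C5, and the part of this makeup in the *Scx* differences was not tested.

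**Figure D4:**
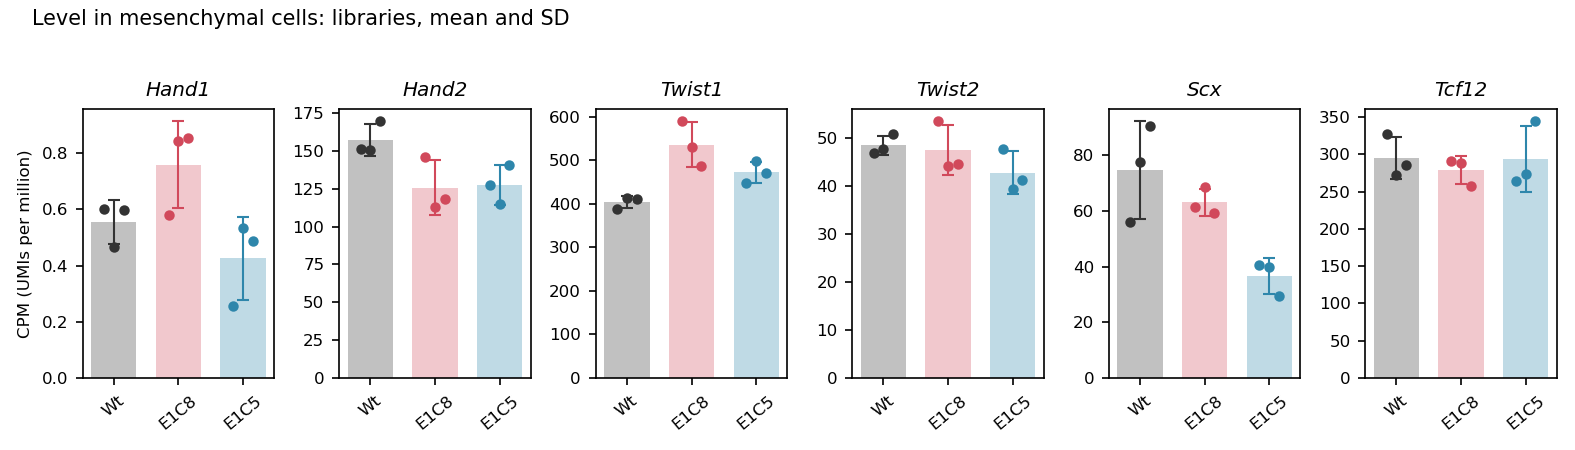
Level (y axis, CPM) in all mesenchymal cells of each library (points) by genotype (x axis), with the mean and SD (n = 3), for each of the 6 bHLH genes. *Twist1* is at 449 CPM or more in every mutant library and at 413 CPM or less in every Wt library, and *Hand2* shows the reverse order.

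The same comparisons were made within each gate. They were rerun with gates from all UMIs, with a replicate block and with each library left out. They were not rerun with embryo sex as a covariate, among XY embryos or with DESeq2. Over the 12 gates, the log2 fold change of *Twist1* for the mean of both mutants was above 0 in all 12 (median 0.22), that of *Scx* below 0 in all 12 (median -0.59) and that of *Hand2* below 0 in 9 (median -0.19), over gates that share cells. *Scx* was below 0 in 12 gates in E1C5 (median -1.10) but in 8 in E1C8 (median -0.16). Of 67 tests of a member within a gate, 8 passed for the mean of both mutants, where 0.864% of the tests of all genes over the 12 gates did, with 6 for E1C8 (4.24%) and 5 for E1C5 (0.652%). *Twist1* was higher in the unmarked gate (0.48 ± 0.09 on the log2 scale, adjusted p = 0.017, where 2.37% of genes passed), the weakly posterior gate (0.50 ± 0.11, 0.030, 1.8% passed), the core chondrogenic gate (0.50 ± 0.12, 0.0499, 1.53% passed) and the zeugopodal gate (0.51 ± 0.10, 0.024, 1.7% passed). In the unmarked gate it was at 340, 366 and 321 CPM in Wt, at 550, 479 and 454 CPM in E1C8 and at 425, 461 and 463 CPM in E1C5, without overlap. E1C8 alone passed in the same 4 gates (where 7.04, 6.72, 2.65 and 8.6% of genes passed), by 0.51, 0.57, 0.64 and 0.57 on the log2 scale, and E1C5 alone in the unmarked gate (0.44, adjusted p = 0.039, where 2% passed). In the anterior gate, where *Twist1* is highest, E1C8 libraries (834, 674 and 674 CPM) lay above the Wt libraries while E1C5 libraries (535, 647 and 543 CPM) overlapped with them, and neither passed. The *Twist1* calls for the mean of both mutants were lost without Wt 1 or Wt 3 in each of these 4 gates (adjusted p 0.062 to 0.143), those in the weakly posterior and zeugopodal gates also without E1C8 1 or E1C8 2 (0.051 to 0.073), the weakly posterior one without E1C5 1 or E1C5 2 as well (0.056), and the core chondrogenic one without any library but E1C8 3 (0.068 to 0.139). With gates from all UMIs the core chondrogenic call was lost (0.34, adjusted p = 0.111) and *Twist1* passed in the posterior gate (0.40, 0.041). The E1C8 calls were all lost without E1C8 1 (adjusted p 0.052 to 0.090), the weakly posterior one also without Wt 1 or E1C8 2 (0.061 and 0.058), and the core chondrogenic one without Wt 1, Wt 2 or E1C8 2 (0.062 to 0.098) and with gates from all UMIs (0.064). The E1C5 call was lost without any library but Wt 2 and E1C5 3 (0.051 to 0.126).

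The makeup of the unmarked and weakly posterior gates moved with these differences. Core chondrogenic cells, the domain poorest in *Twist1*, were 26.4 to 40.4% of unmarked cells in Wt, 17.8 to 27.9% in E1C8 and 10.9 to 16.9% in E1C5. In the weakly posterior gate they were 13.3 to 24.5, 6.98 to 19.6 and 9.35 to 12.4%. The *Twist1* call for both mutants within the core chondrogenic gate itself was lost in most leave-outs and with gates from all UMIs, as given above. The part of the makeup in the *Twist1* differences was not tested.

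*Hand2* was lower within the core chondrogenic gate, the cells that form cartilage. Its level there was 134, 127 and 129 CPM in Wt, 74.4, 102 and 97.4 CPM in E1C8 and 77.9, 93.5 and 82.8 CPM in E1C5, without overlap. The log2 fold change was -0.56 ± 0.10 for both mutants (adjusted p = 0.021), -0.53 ± 0.12 for E1C8 (0.041, 2.65% of genes passed) and -0.60 ± 0.12 for E1C5 (0.029, 1.61% passed). The call for both mutants was lost without Wt 2 (adjusted p = 0.067) or Wt 3 (0.064), that for E1C8 without Wt 1, Wt 2, any E1C8 library or E1C5 1 (0.053 to 0.116), and that for E1C5 without any Wt library, E1C5 1 or E1C5 3 (0.053 to 0.105). *Hand2* also differs along the axis within this gate, as given above. Anterior gate cells were 63 of 785 core chondrogenic cells in Wt 1 and 85 of 1314 in Wt 2. They were 144 of 1253 in E1C8 2, 65 of 864 in E1C8 3, 22 of 261 in E1C5 1 and 116 of 985 in E1C5 3. The part of this makeup in the difference was not tested. In the posterior gate *Hand2* was at 299.6, 279 and 294 CPM in Wt, 239, 207 and 205 CPM in E1C8 and 233, 239.6 and 308 CPM in E1C5. E1C8 lay below Wt and E1C5 overlapped with it, and the log2 fold change was -0.46 ± 0.11 in E1C8 (adjusted p = 0.023, where 6.99% of genes passed), a call lost without Wt 1, Wt 2, E1C8 2 or E1C8 3 (0.062 to 0.126). Proximal cells, poor in *Hand2*, were 3.19 to 8.75% of the posterior gate in Wt, 15.8 to 24.3% in E1C8 and 8.33 to 18.9% in E1C5, and the part of this in the difference was not tested. Whether the mutants differ from each other within gates was not tested. *Hand2os1* did not pass across the mesenchyme (0.03 ± 0.12, adjusted p = 0.917), and within the core chondrogenic gate it was lower for the mean of both mutants (-0.52, adjusted p = 0.021), at -0.95 in E1C5 (0.002) and -0.09 in E1C8 (0.720). In the proximal gate it was higher in E1C8 by 0.56 on the log2 scale (adjusted p = 0.030).

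*Scx* was lower in both mutants combined within the unmarked gate (-0.76 ± 0.17 on the log2 scale, adjusted p = 0.037), the weakly posterior gate (-0.64 ± 0.15, 0.047) and the zeugopodal gate (-1.14 ± 0.25, 0.038). E1C5 alone passed in the same 3 gates, with -1.12 ± 0.20 (adjusted p = 0.017), -0.96 ± 0.18 (0.020) and -1.72 ± 0.30 (0.018), where 2, 0.972 and 0.818% of genes passed, and E1C8 alone in none of the 12 gates. In the zeugopodal gate *Scx* was at 25.9, 39.5 and 67.3 CPM in Wt, at 22.2, 34.0 and 27.5 CPM in E1C8 and at 13.6, 15.6 and 8.98 CPM in E1C5. E1C5 lay below all other libraries there. Each of these *Scx* calls for both mutants was lost without Wt 2 or Wt 3 (adjusted p 0.105 to 0.174) and without any E1C8 library (0.057 to 0.121), the weakly posterior one also without E1C5 2 (0.083) and with gates from all UMIs (0.064), and the zeugopodal one also without E1C5 1 (0.051). The E1C5 calls were lost without Wt 3 (0.063 to 0.082), the weakly posterior one also without Wt 2, E1C5 2 or E1C5 3 (0.053 to 0.062) and with gates from all UMIs (0.083). The lower share of core chondrogenic cells, rich in *Scx*, in the unmarked and weakly posterior gates of E1C5 moved with these calls and its part was not tested. Within core chondrogenic cells *Scx* was at -0.51 ± 0.14 in E1C5 (adjusted p = 0.0997) and -0.13 ± 0.14 in E1C8 (0.675). In the weakly anterior gate *Scx* passed for both mutants combined only when a certain 1 library was left out (adjusted p = 0.037).

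**Figure D5:**
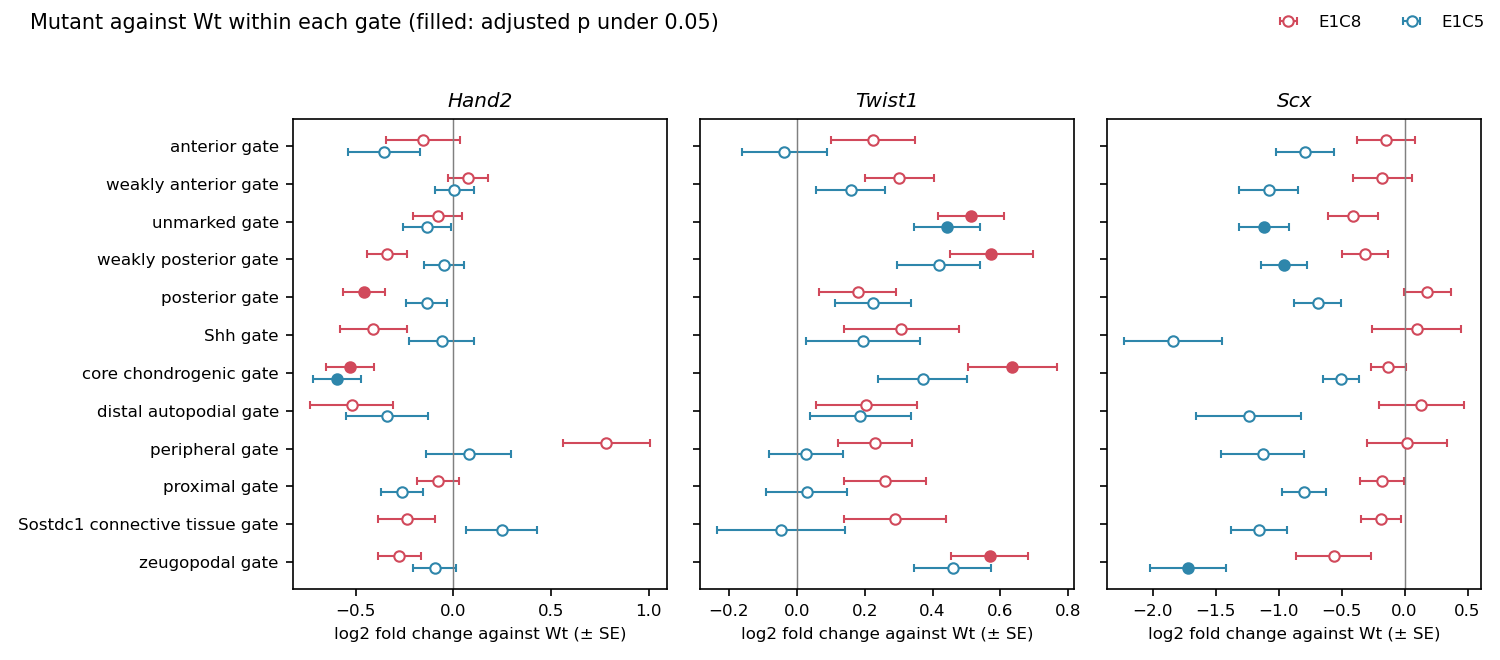
Log2 fold change of each mutant against Wt (x axis, with SE) within each gate (y axis) for *Hand2*, *Twist1* and *Scx*, with filled points for an adjusted p under 0.05. *Twist1* points of E1C8 are filled in the unmarked, weakly posterior, core chondrogenic and zeugopodal gates and of E1C5 in the unmarked gate, and *Scx* points are filled for E1C5 in 3 gates and for E1C8 in none.

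The ratio of *Twist1* to *Hand2* UMIs combined both shifts. In the unmarked gate it was 2.63 to 2.81 in Wt, 3.63 to 4.46 in E1C8 and 3.68 to 4.64 in E1C5, and in the weakly posterior gate 1.18 to 1.48, 2.29 to 2.59 and 1.69 to 1.84. Mutant libraries lay above Wt libraries in both gates. They also did in the *Shh* gate, with 2 libraries per genotype (0.789 to 1.00 in Wt, 1.46 to 1.67 in E1C8 and 1.08 to 1.18 in E1C5). In the posterior and weakly anterior gates E1C8 lay above Wt while E1C5 overlapped with it. In the anterior gate all 3 genotypes overlapped (7.25 to 16.5, 13.3 to 17.5 and 14.4 to 19.9). Among shares of cells after thinning, a *Twist1* UMI was found in 91.8% of Wt and 96.7% of mutant mesenchymal cells (means over libraries, every mutant library above every Wt library), at p = 0.012 in a two-sided exact permutation test, the smallest p that 84 splits allow, or 0.071 adjusted over the 6 genes. For *Scx* the shares were 43.5 and 32.2% (p = 0.071, adjusted p = 0.214, exact permutation test), and for *Hand2* 55.6 and 52.3% (p = 0.214, adjusted p = 0.429). Before thinning the *Twist1* shares were 98.8 and 99.2%.

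The makeup of the mesenchyme also moved. The weakly anterior gate held 13.2% of Wt and 16.0% of mutant cells and the weakly posterior gate 13.1 and 10.1%, both without overlap (exact permutation test, p = 0.012, adjusted p = 0.036), and neither passed with gates from all UMIs (adjusted p = 0.167 and 0.536). With 1 library left out the smallest p of this test is too large for 2 gates to pass after adjustment, and the differences were 1.80 (without Wt 3) to 3.44 points in the weakly anterior and -3.62 to -2.26 points in the weakly posterior gate. Median depth per mesenchymal cell was 30004 to 48044 UMIs in Wt, 16627.5 to 30876.5 in E1C8 and 30695 to 44663 in E1C5, and its part in the *Twist1* and *Hand2* differences was not tested.

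Partners and inhibitors of the 6 factors formed the next group. The E protein genes *Tcf3* and *Tcf4* did not pass between genotypes (adjusted p 0.432 to 0.924), and along the axis only *Tcf4* passed, higher in the posterior gate by 0.15 ± 0.05 on the log2 scale (adjusted p = 0.020). *Tcf3* was at 0.07 ± 0.03 (0.153). All 4 Id genes, targets of BMP signaling in many tissues, were lower in the posterior gate of Wt libraries: *Id1* by a log2 fold change of -0.95 ± 0.07, *Id2* of -1.14 ± 0.06, *Id3* of -0.75 ± 0.08 and *Id4* of -1.74 ± 0.17 (adjusted p of 3.96e-12 or less), where 11.1% of all genes were lower. Of the 4, 3 changed their slope in the mutants: the posterior minus anterior difference was higher than in Wt by 0.35 ± 0.09 for *Id1* (adjusted p = 0.037), 0.49 ± 0.07 for *Id2* (1.34e-05) and 0.46 ± 0.09 for *Id3* (0.003), and *Id4* was at 0.72 ± 0.25 (0.198), where 0.626% of all genes were higher. Across the mesenchyme *Id3* alone was higher in the mutants (0.43 ± 0.10, adjusted p = 0.047, where 0.673% of all genes were higher), in E1C8 by 0.74 ± 0.11 (0.005), and by 0.63 ± 0.11 in E1C8 against E1C5 (0.009).

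Of 11 tested genes around HAND2 and GLI3 in the posterior pathway, leaving out those that define the gates, 7 were higher in the posterior gate (*Ets1*, *Ets2*, *Gli1*, *Grem1*, *Hoxd13*, *Ptch1* and *Tbx3*) and 1 lower (*Gli3*, -0.89 ± 0.05), with a median of 0.80 beside 0.0034 over all genes, of which 22.5% passed. *Gli3*, the anterior counterpart of *Hand2*, had a negative but weak relation to it from cell to cell (median Pearson's r of -0.166 over 9 libraries, -0.228 to -0.143). The slopes of 4 of these were lower in the mutants (*Grem1* -1.43 ± 0.23, *Ptch1* -0.85 ± 0.14, *Etv5* -0.49 ± 0.13 and *Ets2* -0.29 ± 0.07) and of 2 higher (*Tbx2* 0.80 ± 0.14 and *Tbx3* 0.60 ± 0.14), where 1.14% of all genes passed. That of *Hand2* did not pass for the mean of both mutants. Across the mesenchyme 2 of 15 passed (2.01% of all genes), *Grem1* (-1.14 ± 0.14, adjusted p = 0.004) and *Hoxd13* (-0.81 ± 0.13, 0.012).

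Of 11 genes linked to TWIST1 in mesenchyme, 1 was higher in the mutants (*Snai1*, 0.51 ± 0.11) and 2 lower (*Fgfr1*, -0.39 ± 0.08, and *Zeb2*, -0.55 ± 0.12), with a median of 0.03, where 2.01% of all genes passed. In E1C8, where *Twist1* passed, 4 were higher (*Snai1* 0.88 ± 0.13, *Msx2* 0.91 ± 0.14, *Fgfr2* 0.47 ± 0.10 and *Snai2* 0.36 ± 0.09) and 2 lower (8.5% of all genes passed), and in E1C5 0 of 11 passed (1.41%). Of 12 tested genes of tendon progenitors, *Lum* alone was lower in the mutants (-0.93 ± 0.18, adjusted p = 0.029), and 4, among them *Col1a1*, *Col1a2* and *Six2*, were, with *Scx*, higher in E1C8 than in E1C5, as were 4.38% of all genes. In the *Shh* gate 5 of 11 were, with *Scx*, lower than in the posterior gate (among them *Col1a1*, *Col1a2*, *Egr1* and *Egr2*) and 0 were higher, where 7.22% of all genes were lower and 6.3% higher.

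Likeness of pattern was measured as Pearson's r of log2(CPM + 1), centred within library, over 34 gates of the Wt libraries, which share cells, among 8890 genes (8891 for *Hand1*). *Hand2os1* was most like *Hand2* (r = 0.975), followed by *Ddx5* (0.924), *Rab34* (0.913) and *Cuedc1* (0.912). *Crabp1*, which encodes a retinoic acid binding protein, was most like *Twist1* (0.883), ahead of *Gpi1*, *Cacna1c*, *Aldh9a1* and *Smad7* (0.830 to 0.854). The genes most like *Scx* were *Cxcl12* (0.971), *Igf2* (0.965), *Fli1* (0.964), *H19* (0.959) and *Homer2* (0.956), those most like *Tcf12* were *Gxylt2*, *Col3a1*, *Tnfaip6*, *Epb41l3* and *Cdo1* (0.887 to 0.914), and those most like *Twist2* were *Cntfr*, *Ece1*, *Znrd1*, *Ndufb8* and *Dok4* (0.771 to 0.837). For *Hand1*, at a mean of 0.609 CPM, they were *Phactr3*, *Sdc2*, *Mogat2*, *Xylt1* and *Zcchc2* (0.799 to 0.826).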

How the data were processed

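The deposited files hold raw UMI counts per gene and barcode, which the authors made from 10x Genomics 3′ v3.1 reads with Cell Ranger 6.0.1 against mm10 (4 transgene features added). Counting used default parameters, which in that version take exonic reads in the sense direction. Gene positions were taken from GENCODE M21, and promoters from RefSeq (GRCm38.p6), which listed 4 of the 6 genes. The members, gene lists and tests were chosen with earlier results of these data known.

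Cells had over 2500 genes, under 200000 UMIs and under 10% mitochondrial UMIs. Simulated doublets were added to each library, cells were scored by how many of their neighbours were simulated, and the highest-scoring 0.8% per 1000 barcodes were removed. The 2534 cells with markers of mesenchyme and of another type were set aside, as were 3128 cells with too few markers. Mesenchymal cells with at least 10000 UMIs (32284) were thinned to that depth for gates, shares and ratios. Cell types are rebuilt from markers, not the authors' annotation.

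UMIs were summed per library, or per library and gate, and tested with edgeR 4.0.16 (quasi-likelihood, filterByExpr, TMM) with Benjamini-Hochberg adjustment over all genes tested. Genes of the X and Y chromosomes and mitochondria were left out, as were gate markers in the test along the axis. Genotypes were compared in 1 fit of 9 libraries. The anterior to posterior fit had library as a block and gate within genotype. Shares were compared by two-sided exact permutation tests of 6 mutant against 3 Wt libraries, which cannot go below p = 0.012. The library is the replicate, and p-values of genotype comparisons measure the spread between libraries. In the anterior to posterior fit, p-values measure how gates vary within libraries, pooled over the gates of all 9 libraries. They do not measure the spread between the 3 Wt libraries. Summed mesenchymal UMIs ranged from 14611729 to 235497387 per library. Intervals on counts are exact (binomial or Poisson, 95%) and cover counting error only.

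Named genes were all 6 members, E protein and Id genes, other listed genes past an adjusted p of 0.05, and for each member the 5 genes with the most similar pattern and a mean of at least 5 CPM, without predicted genes. Some genes of the marker, tendon and pattern lists entered the counts but are not reported here. On simulated counts, 82.5% of 200 genes changed by 1 on the log2 scale were recovered in the genotype comparison with 13 false calls, and 94% with 12 false calls along the axis. Alternatives were DESeq2 1.42.0, its size factors, no low-count filter, each library left out, a replicate block, embryo sex, doublets or mixed-lineage cells kept, a stricter mesenchyme definition and other gate rules. Chosen after seeing the data were the restriction to libraries with at least 1000 mesenchymal cells and that to XY embryos. For comparisons within gates the alternatives were only gates from all UMIs, a replicate block and each library left out. R 4.3.3, Python 3.11.15, numpy 2.4.6, pandas 2.3.3 and scipy 1.17.1 were used.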

Additional observations from a re-analysis of the deposited data

Results flagged for a closer look

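*Scx* was the 1 member for which the effects of the 2 deletions differed by a test of the difference itself. Its mesenchymal level was 61.4, 68.7 and 59.1 CPM in E1C8 and 40.7, 39.8 and 29.3 CPM in E1C5, against 55.9, 77.7 and 90.5 CPM in Wt. E1C8 was higher than E1C5 by 0.700 on the log2 scale (adjusted p = 0.042, edgeR's quasi-likelihood test), in 3 of 3 libraries against every E1C5 library, and the call was lost when Wt 2, any E1C8 library or any E1C5 library was left out (adjusted p 0.052 to 0.141). No group had the 4 libraries that a test for a single outlying library needs.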

How the results depend on the processing

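Of 1417 values of single genes and gates recomputed under alternatives, 1209 kept their direction and their side of the threshold, 142 lost a call, 24 gained one and 42 changed sign, and none of the 42 had been called. The posterior against anterior calls of *Hand2*, *Twist1*, *Twist2* and *Scx* held under all alternatives run for them, and that of *Hand1* under all but gates of 3 UMIs. The genotype calls across the mesenchyme were each lost when any 1 of 5 (*Scx* in E1C5) or 7 libraries (*Twist1* in E1C8, *Scx* between the mutants) was left out. They rest on 3 libraries per genotype, 2 of the 9 small (424 and 708 mesenchymal cells), and all Wt embryos were XY. *Hand1* is limited by depth, with 1 UMI in the Wt *Shh* gate. The cause of the changes listed here was not tested.

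The number of genes called for the mean of both mutants against Wt (323) was 877 with DESeq2, 491 without the low-count filter, 8 with embryo sex as a covariate, 47 in libraries with 1000 or more mesenchymal cells and 20 in XY embryos. For E1C8 against Wt (1363) it was 2092, 114 with sex, 491 in larger libraries and 39 in XY embryos, and for E1C5 against Wt (226) 581, 370 without the filter, 22 with sex, 53 in larger libraries and 20 in XY embryos. For E1C8 against E1C5 (1514) it was 9 in XY embryos. Along the axis (3197 in Wt) it was 2038 with gates of 3 UMIs, and for the difference in slope (162) it was 107 with DESeq2, 270 without the filter, 23 with gates of 3 UMIs and 22 without *Hoxd12*. With gates from all UMIs 0 gate shares passed, against 2.

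Leaving out 1 library gave 112 to 712 calls for both mutants, 337 to 1858 for E1C8, 70 to 266 for E1C5, 317 to 2130 for E1C8 against E1C5, 2099 to 3463 along the axis, 829 to 2000 for the *Shh* against the posterior gate, 68 to 163 for the difference in slope, 0 to 8 for members within gates (8 with all libraries, 0 without Wt 3) and 0 to 0 for gate shares, where the smaller design allows 2 gates no call.

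Same-numbered libraries did not deviate together (correlations of -0.289 to 0.141, 1 of 9 over 0.1, against 6 of 18 between different numbers), so the numbers are not read as pairs. With a replicate block the calls were 85 for both mutants, 606 for E1C8, 129 for E1C5, 715 for E1C8 against E1C5 and 4 for members within gates, and the genotype calls of *Twist1* in E1C8 (adjusted p = 0.066), *Scx* in E1C5 (0.068) and *Scx* between the mutants (0.077) were lost. Of 11 calls for 1 mutant within a gate, the block lost *Hand2* in E1C8 (core chondrogenic and posterior), *Twist1* in E1C8 (core chondrogenic) and E1C5 (unmarked) and *Scx* in E1C5 (weakly posterior), at adjusted p of 0.051 to 0.065.

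Sign changes, none of them of a called value, were as follows. For *Tcf12*, E1C5 against Wt was -0.0085 with sex and -0.0099 in XY embryos, posterior against anterior was 0.064 without *Hoxd12*, the difference in slope was -0.025 with gates from all UMIs and -0.0038 without *Hoxd12*, and the share difference was 0.110 points at 2 UMIs or more. For *Hand1*, the difference in slope was 0.117 with DESeq2, 0.62 with gates from all UMIs, 0.343 with gates of 3 UMIs and 0.756 without *Hoxd12*, E1C5 against Wt was 0.060 in XY embryos, and the share difference was -0.226 points unthinned and -0.060 at 2 UMIs or more. For *Hand2*, the difference in slope was 0.176 with gates of 3 UMIs, and with gates from all UMIs the mutants were at -0.031 in the weakly anterior, -0.087 in the peripheral and -0.232 in the Sostdc1 connective tissue gate. *Twist2* in the *Shh* against the posterior gate was -0.027 with gates from all UMIs and -0.0030 with doublets kept, and E1C8 against E1C5 was -0.013 in larger libraries. *Scx* had a difference in slope of -0.128 with doublets kept and -0.176 in larger libraries, and *Twist1* for E1C8 against E1C5 was at -0.103 in XY embryos.

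With 1 library left out, *Hand1* ranged from -0.013 to 0.216 for both mutants, from -4.38 to 2.82 for the *Shh* against the posterior gate and from -1.86 to 1.00 for the difference in slope. *Tcf12* ranged from -0.075 to 0.031 for both mutants, from -0.032 to 0.112 for E1C5 and from -1.14 to 0.583 points in share. *Hand2* ranged from -0.261 to 0.084 for the difference in slope, from -0.038 to 0.115 in the weakly anterior gate and from -0.101 to 0.148 in the Sostdc1 connective tissue gate. *Scx* ranged from -0.141 to 0.198 for the difference in slope, *Twist2* from -0.021 to 0.166 for E1C8 against E1C5, and the anterior gate share from -0.094 to 1.20 points.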

Other observations

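Of 30 other bHLH genes that were listed, 15 could be tested along the axis in Wt libraries, of which 5 were higher in the posterior gate and 4 lower, with a median log2 fold change of -0.03 beside 0.0034 over all genes, of which 11.4% were higher and 11.1% lower. Among the higher ones, *Hey1* rose by 1.41 ± 0.15 on the log2 scale, *Hes6* by 0.48 ± 0.07 and *Hes1* by 0.32 ± 0.08. *Mycn* (0.43 ± 0.08) and *Bhlhe41* (1.90 ± 0.64) were also higher, and *Tcf15* (-2.51 ± 0.14), a factor of early paraxial mesoderm, *Bhlhe40* (-1.42 ± 0.53), *Atoh8* (-0.91 ± 0.13) and *Mxd4* (-0.54 ± 0.09) were lower. In the mutants the posterior minus anterior difference was lower than in Wt for 3 of the 15, by log2 differences of -0.74 ± 0.20 for *Hey1* (adjusted p = 0.049), -0.39 ± 0.11 for *Hes1* (0.047) and -0.37 ± 0.08 for *Hes6* (0.014), where 1.14% of all genes passed in either direction.

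Across the mesenchyme 19 of the 30 were tested. *Bhlhe41* alone passed for both mutants (1.32 ± 0.27, adjusted p = 0.034, where 2.01% of all genes passed), in E1C5 by 1.74 ± 0.29 (0.016, 1.41% passed), and *Mycn* alone in E1C8 (0.67 ± 0.16, 0.028, 8.5% passed). *Hes1*, *Hes6*, *Hey1* and the muscle gene *Myf5* were higher in E1C8 than in E1C5 (0.53 to 2.25), as were 4.38% of all genes. *Myf5* is one of the muscle markers that moved with *Scx*.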
